A study of Homo sapiens with 2 samples.

Results

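The cytosolic ribosomal protein genes were examined in the established pancreatic adenocarcinoma cell line AsPC-1, of human origin, with and without compression. They encode the proteins that, with the ribosomal RNAs, build the large and small subunits of the ribosome outside mitochondria. Members were the named probe sets whose gene symbol was RPL or RPS with a number and at most 1 closing letter A, X or L, or was RPSA, RPLP0, RPLP1 or RPLP2. This gave 56 probe sets of 49 genes, among 16098 named probe sets of 14884 genes. A gene with several probe sets was represented by the probe set with the highest mean of both arrays. Of the members, 31 belonged to the large and 18 to the small subunit. The RefSeq gene table held 81 protein-coding symbols of this form, so the other 32 ribosomal protein genes, among them the stalk genes RPLP0, RPLP1 and RPLP2, were not analysed here.

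Both samples were AsPC-1 cells grown in serum-containing medium as a 3-dimensional culture, overlaid with collagen gel. The control culture was left uncompressed for 24 h and the other was compressed at 2.9 mmHg for 24 h. The labels name no genetic change and no drug, and each condition was a single culture of a single cell line on 1 GeneChip Human Gene 2.0 ST array. Values are log2 signals made by RMA, a method that corrects background, equalises the arrays and summarises the probes of a probe set. With 1 array per condition there was no replicate check, so no test was made and no p-value is given. The number of arrays limits the precision, and "higher" and "lower" below refer to these 2 arrays only.

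Ribosomal proteins are made in near-equal numbers for assembly in the nucleolus, and their genes are among the most actively expressed in dividing cells. Their messenger RNAs typically begin with a terminal oligopyrimidine (TOP) tract, a C at the first base followed by an unbroken run of C and T. This tract lets the growth-regulated kinase mTORC1, through LARP1 and related factors, control how much of the messenger RNA is translated and how stable it is. A set of ribosomal proteins also acts outside the ribosome when assembly is disturbed; RPL11, for example, binds MDM2 and thereby stabilises p53.

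The sequences around the annotated transcription start are shown for a selection of members, some with large differences, some with negative ones and some that lack the tract, because the tract is the feature most of the genes have in common. Each is 30 bases long, 15 on each side of the start, from RefSeq (GRCh38.p14), written 5′ to 3′ on the gene's strand. Capitals mark the longest run of C and T in the window. For genes with several annotated starts, the start with the longest run was taken.
RPL31, chr2:101002274-101002303, plus strand: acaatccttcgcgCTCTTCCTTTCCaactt
RPS7, chr2:3575245-3575274, plus strand: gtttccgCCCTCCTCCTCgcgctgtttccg
RPL37A, chr2:216498829-216498858, plus strand: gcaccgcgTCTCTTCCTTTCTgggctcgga
RPS24, chr10:78033848-78033877, plus strand: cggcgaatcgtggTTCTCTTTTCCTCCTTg
RPL28, chr19:55385917-55385946, plus strand: tcgcccctcgCCTTCCTCTTTCCgtctcag
RPL11, chr1:23691791-23691820, plus strand: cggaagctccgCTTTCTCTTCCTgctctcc
RPS19, chr19:41860240-41860269, plus strand: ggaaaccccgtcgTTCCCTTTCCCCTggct
RPL24, chr3:101686704-101686733, minus strand: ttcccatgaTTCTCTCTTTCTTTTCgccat
RPS26, chr12:56041903-56041932, plus strand: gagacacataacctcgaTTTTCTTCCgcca
RPS29, chr14:49598696-49598725, minus strand: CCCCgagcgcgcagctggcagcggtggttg
RPL10L, chr14:46651767-46651796, minus strand: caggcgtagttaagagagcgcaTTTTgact
RPS27L, chr15:63157463-63157492, minus strand: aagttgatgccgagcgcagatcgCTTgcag

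The promoter table matched 44 of the 49 members; RPL30, RPL39L, RPL3L, RPL8 and RPS15A had no entry. A TOP start, here a C at an annotated start followed by at least 4 bases that were C or T, was found in 30 of the 44 members (68.2%) and in 988 of 15842 protein-coding genes of the table (6.24%). The longest run of C and T in the 30-base window had a median of 11 bases over the members and 5 bases over protein-coding genes. RPS7 and RPS26 missed the definition by their annotated starts and still held runs of 11 and 9 bases. RPL10L and RPS27L, both close relatives of other ribosomal protein genes, held runs of 4 and 3 bases.

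Around the start, part of the members also held short promoter motifs, some more often and some less often than protein-coding genes did. Each was searched from 250 bases before to 50 bases after an annotated start. The motif CCGGAAG, which ETS-family factors such as GABPA bind, was found on either strand of this 300-base window in 14 of 44 members (31.8%) and in 16.5% of protein-coding genes. The motif TCTCGCG, searched on both strands, was found in 10 members (22.7%) and in 5.97% of protein-coding genes; in RPL17, RPL26, RPS19 and RPS6 it overlapped its own reverse complement to form a palindrome. The AAGATGG core of YY1 sites was in 5 members (11.4% against 7.90%), GGGCGG of SP1 sites in 24 (54.5% against 64.3%), the E-box CACGTG of MYC in 3 (6.82% against 10.9%) and TATAAA in 3 (6.82% against 12.4%). All were searched on both strands, none of the motifs contains another, and a match describes the sequence only. The 100 bases before the start are given for RPL26, which holds both of the first motifs, for RPS19 with the palindrome and for RPL31, the kept member with the largest positive difference. Capitals mark CCGGAAG and TCTCGCG on either strand, and a longer run of capitals is an overlap of matches.
RPL26, chr17:8383194-8383293, minus strand: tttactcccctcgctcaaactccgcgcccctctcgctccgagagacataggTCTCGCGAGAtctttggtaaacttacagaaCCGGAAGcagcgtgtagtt
RPS19, chr19:41860155-41860254, plus strand: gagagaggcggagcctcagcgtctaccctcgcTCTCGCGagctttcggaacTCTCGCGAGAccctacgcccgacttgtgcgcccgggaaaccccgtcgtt
RPL31, chr2:101002189-101002288, plus strand: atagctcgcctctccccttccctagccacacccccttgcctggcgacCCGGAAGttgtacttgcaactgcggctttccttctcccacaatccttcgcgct

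The comparison of the arrays addressed how transcript levels differed after compression. Ribosomal protein genes were slightly higher in the compressed culture, by small amounts in most members and by 1.5-fold in none of those above the level floor. Genes counted as kept had a mean log2 signal no lower than 4.79, the median of that mean across genes; 7442 genes and 43 of the 49 members met this floor. Of these 43 members, 36 had a positive difference (83.7%), 6 a negative one and RPL9 had exactly the same value on both arrays, as had 2.45% of kept genes, while 50.8% of all kept genes had a positive difference. The median difference, compressed minus uncompressed, was 0.13 on the log2 scale (1.09-fold) over the members and 0.01 over all kept genes. RPL31 and RPS7 met the floor only through the compressed array; over the 41 members above it on both arrays, 34 were positive and the median was 0.11. At least 1.5-fold higher (0.58 on the log2 scale) were 0 of 43 members and 3.95% of kept genes, and at least 1.5-fold lower were 0 of 43 members and 1.12% of kept genes. At a smaller size of 0.32 on the log2 scale, 4 members (RPL31, RPS7, RPL37A and RPS24) were higher and 0 lower, against 13.5% and 8.28% of kept genes.

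The members' differences were also more closely spaced than those of all kept genes. Their interquartile range was 0.18, from 0.03 to 0.21, whereas that of all kept genes was 0.34, from -0.15 to 0.18. For kept genes this range fell with signal level, from 0.36 below 6 to 0.26 at 10 or above. Close spacing was not particular to the members. The quartiles were -0.16 and -0.05 for 32 kept ribosome assembly factors, and -0.08 and 0.12 for 12 kept translation factors. Of the 43 members, 14 (32.6%) lay above the upper quartile of kept genes and 1, RPS26 (2.33%), lay below the lower quartile. After repeated quantile normalization of the named genes, the median over members was 0.05 and 28 of 43 were positive, beside a median of -0.02 and 45.7% positive over kept genes. This scaling moved the difference of 23 of the 43 members by over 1.5 times or turned its sign. The size of the median, but not its sign, therefore depended on how the arrays were scaled.

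**Figure D1:**
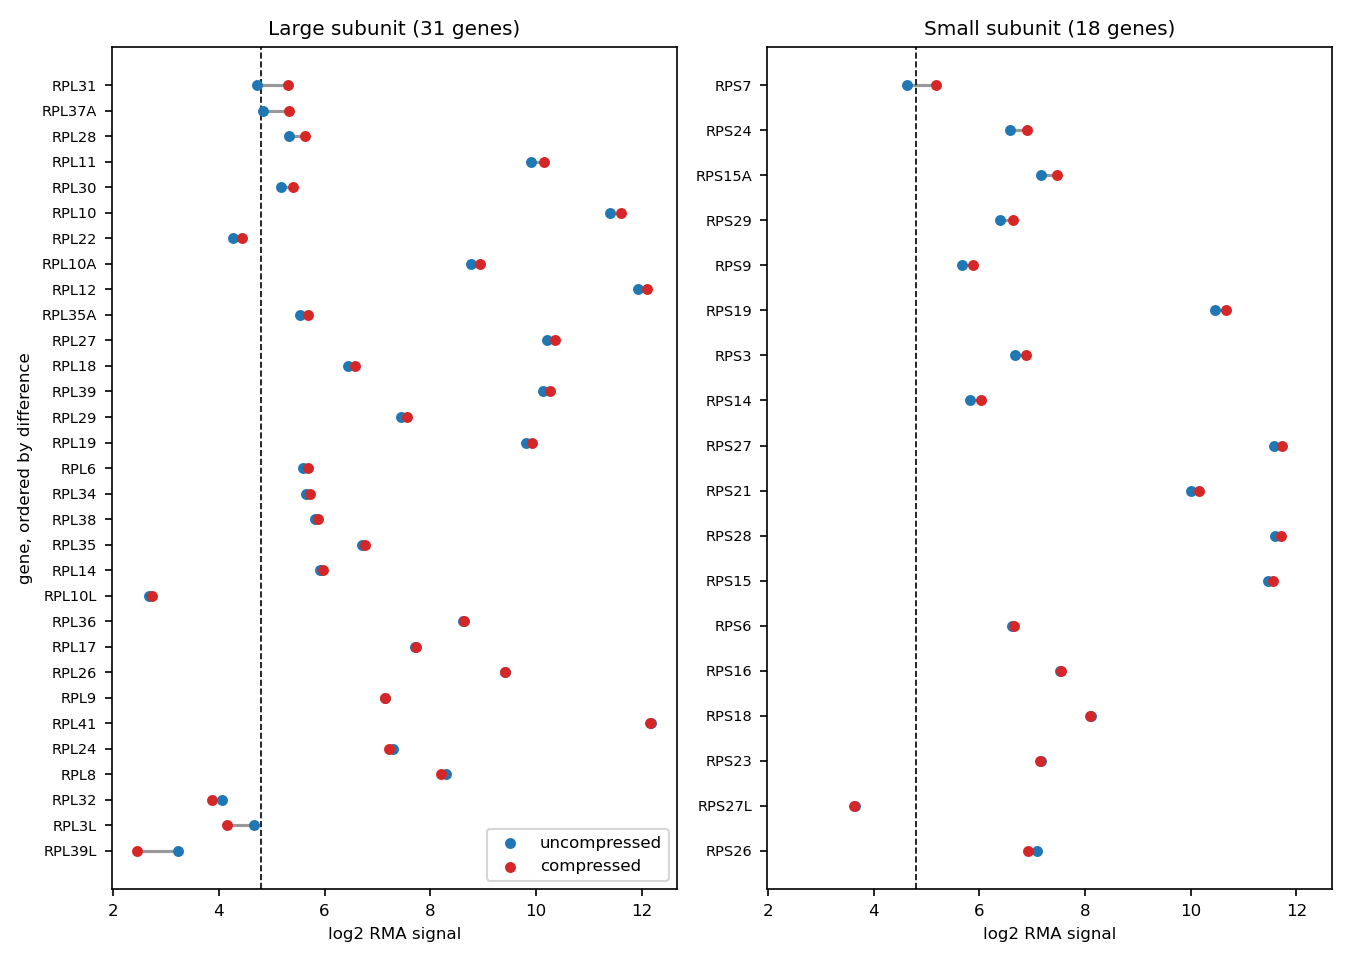
Log2 RMA signal of each of the 49 members on the uncompressed (blue) and the compressed array (red), with the genes of each subunit ordered by difference; each point is 1 array and the dashed line is the level floor of 4.79. Red points lie to the right of blue ones in 36 of the 43 members above the floor, with the widest gaps for RPL31, RPS7 and RPL37A.

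Among the large-subunit proteins, 26 of 31 genes passed the floor, 22 of these had a positive difference, and the median was 0.11. RPL31, a protein near the exit of the tunnel through which the growing peptide leaves the ribosome, read 4.73 on the uncompressed and 5.31 on the compressed array. Its difference of 0.58 (1.49-fold) was just under the 1.5-fold size and at the 95.9th percentile of kept genes. RPL37A, a zinc-binding protein of the large subunit, read 4.83 and 5.33, a difference of 0.50 (1.41-fold). Both genes read close to the floor on the uncompressed array, where RPL31 was below it, so the size of their differences is less certain than that of brighter probe sets.

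RPL28 read 5.32 on the uncompressed and 5.63 on the compressed array, a difference of 0.30 (1.23-fold). RPL11, the MDM2-binding protein, read 9.91 and 10.15, a difference of 0.24 (1.18-fold), and RPL30 read 5.17 and 5.41, also a difference of 0.24. RPL11 is the 1 of the MDM2-binding pair RPL5 and RPL11 that had a named probe set. All 5 of these genes were higher on the compressed array under each scaling tried.

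At the other end of the large subunit, negative values were small. RPL8, which lies near the peptidyl transferase centre, read 8.29 on the uncompressed and 8.21 on the compressed array, a difference of -0.08. RPL24, a protein at the interface of the subunits, read 7.29 and 7.21, also a difference of -0.08. RPL41, a very short peptide, read 12.19 and 12.16 (-0.03, with a positive sign when its probe sets were averaged), RPL9 was 7.14 on both, and RPL26, a ribosomal protein known to bind the p53 messenger RNA, differed by 0.00 (9.41 on both). All of these lay within the central part of the distribution of kept genes. RPL12, part of the base of the ribosomal stalk, read 11.92 and 12.10, a difference of 0.17 that was 0.05 after repeated quantile normalization.

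Among the small-subunit proteins, 17 of 18 genes passed the floor, 14 of these had a positive difference, and the median was 0.16. RPS7, needed for processing of the small subunit's ribosomal RNA, read 4.62 on the uncompressed and 5.18 on the compressed array, a difference of 0.56 (1.47-fold). Its uncompressed value lay below the floor. RPS24 read 6.57 and 6.90, a difference of 0.33, and RPS15A read 7.17 and 7.47, a difference of 0.30 (1.23-fold). RPS7 and RPS24 are both among the genes mutated in Diamond-Blackfan anaemia, an inherited failure of red cell production.

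RPS29 read 6.39 on the uncompressed and 6.63 on the compressed array (difference 0.24), and RPS9 read 5.67 and 5.89 (0.22). RPS28, which lies near the mRNA exit channel, read 11.60 and 11.70 (0.10), but its difference was -0.04 after repeated quantile normalization. The lowest difference among kept members was that of RPS26, a protein at the mRNA exit channel, which read 7.08 and 6.93, a difference of -0.15 (1.11-fold lower). RPS23, a decoding-centre protein, read 7.16 and 7.15 (-0.01), RPS18 8.11 and 8.10 (-0.01), RPS16 7.53 and 7.54 (0.00) and RPS6, the target of the S6 kinases, 6.62 and 6.66 (0.04). The medians of the subunits differed by less than the interquartile range of either, and no test of their difference was possible.

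Members grouped by function gave similar small values. Of the 19 listed Diamond-Blackfan genes, 15 were named and kept. Of these, 14 were positive, beside 83.7% of all kept members and 50.8% of kept genes. In this list 0 passed 1.5-fold and the median was 0.17, with RPS26 the negative member. It includes RPL31 and RPS7, which met the floor only through the compressed array. Of 9 listed proteins at the exit of the peptide tunnel, 7 were kept and all 7 were positive, beside the same shares of 83.7% and 50.8%. RPL31, below the floor on the uncompressed array, is among these 7. Their median was 0.07 and was 0.00 after repeated quantile normalization. Of 6 listed proteins of the mRNA path, 5 were kept and 3 were positive (60.0%). The median of this list was 0.10 and turned to -0.04 after repeated quantile normalization. A small group of zinc-binding ribosomal proteins was picked after the values were seen, because the study's title concerns intracellular zinc. Its kept members were RPL37A, RPS27 and RPS29, with differences of 0.50, 0.16 and 0.24. The group is not a full list of such proteins, and RPS26 (-0.15), for example, was not in it. No direction of zinc-binding members as a whole can be read from it. RPS27 read 11.57 on the uncompressed and 11.72 on the compressed array, and its difference was 0.02 after repeated quantile normalization. The fourth gene of this group, RPS27L, was under the floor, at 3.64 and 3.62.

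The 6 members under the floor did not show the same direction, and whether they were above background is unknown. RPL39L, a relative of RPL39 that is best known from male germ cells, read 3.24 on the uncompressed and 2.46 on the compressed array. RPL3L, a relative of RPL3 found in striated muscle, read 4.66 and 4.15. RPL10L, a retrocopy of RPL10 best known from testis, read 2.69 and 2.73, and RPS27L, a p53-induced relative of RPS27, read 3.64 and 3.62. The other two, RPL22 (4.26 and 4.44) and RPL32 (4.06 and 3.88), encode core ribosomal proteins. With so low a signal the sizes of these differences are uncertain. With no level filter the median over all 49 members was 0.11, 38 were positive (44.3% of all named genes were), and 1, RPL39L, had a negative difference past the 1.5-fold size, against 2.83% of all named genes lower and 3.76% higher by that size.

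Probe sets of the same gene showed how far a single difference can be read. Of the 4 members with more than 1 probe set, 3 had probe sets of opposite sign. The probe set used for RPL19 differed by 0.11 (9.81 and 9.92), while its other one differed by -0.16 (9.90 and 9.74). The 5 probe sets of RPL41 differed by between -0.07 and 0.17, and those of RPS18 by -0.01 and 0.08. Those of RPL39 were both positive, at 0.13 and 0.32. The gap between the probe sets of RPL19 was larger than the median difference over members.

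Ribosomal protein genes have many processed pseudogenes, intronless copies whose sequence can match the probes of the parent gene, so the signal of a member may include theirs. Of 25 named ribosomal protein pseudogenes, 8 were kept, 5 of these were positive, and the median was 0.07, which was -0.02 after repeated quantile normalization. The part of such cross-matching in the members' values was not tested.

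The members' differences varied with signal level. All 12 kept members with a mean signal below 6 were positive, with a median of 0.21, beside a median of 0.00 over the 3147 kept genes of that range. These include RPL31 and RPS7, which met the floor only through the compressed array; the 10 others had a median of 0.19, and 4 of the 6 members under the floor were negative. In the range from 6 to 8, 10 of 14 members were positive and the median was 0.05, beside 0.03 over kept genes. From 8 to 10, 4 of 6 were positive (median 0.02, beside -0.03), and at 10 or above, 10 of 11 were positive (median 0.16, beside 0.03 over 115 kept genes). After repeated quantile normalization, the median over these 11 members was 0.08 and 9 were positive. The Spearman correlation between level and difference was -0.30 across the 43 members, which share both arrays and are not independent replicates, and 0.01 across all kept genes. It was -0.19 across the 41 members above the floor on both arrays. After a loess correction of the difference against level, RPL31 (0.60) and RPS7 (0.59) were over 1.5-fold higher, as were 3.74% of kept genes. The median over members was then 0.11.

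**Figure D2:**
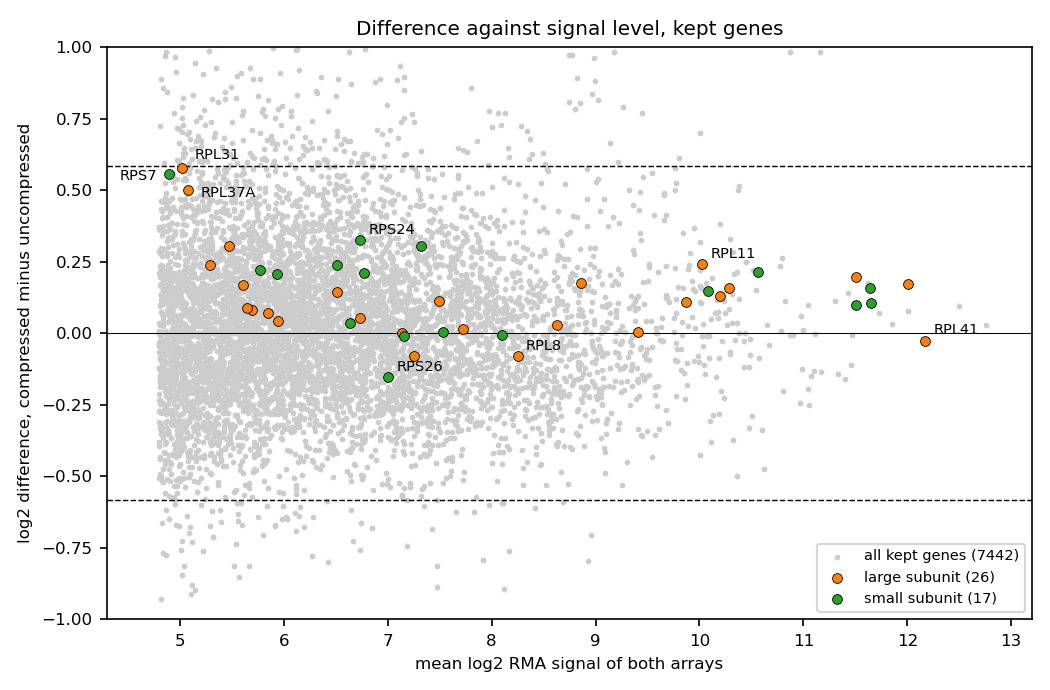
Log2 difference, compressed minus uncompressed, against the mean log2 signal of both arrays, for the 7442 kept genes (grey) and the kept members of the large (orange) and small subunit (green); each point is 1 gene, dashed lines mark 1.5-fold, and 77 kept genes lie outside the plotted range of 1. Members lie between -0.15 and 0.58, mostly just above 0, with RPL31, RPS7 and RPL37A highest at low signal.

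Members with and without a TOP start at the annotated start had similar differences. The split follows the annotation: of the members without one, RPL19, RPS7 and RPS26 still held runs of 12, 11 and 9 bases. It therefore does not separate members that have a tract from members that lack it. The 29 kept members with a TOP start had a median difference of 0.14, with 25 positive, and the 11 with another annotated start had a median of 0.10, with 9 positive. Among kept protein-coding genes that are not members, 395 had a TOP start, with a median of 0.02 and 52.4% positive. The other 5281 had a median of 0.01 and 51.0% positive. By 1.5-fold, 9 of the 395 were higher and 0 lower, and 190 of the 5281 were higher and 50 lower. No test was made of these differences.

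Ribosomal proteins and their relatives whose symbols do not have the form used for the members gave differences between -0.08 and 0.30. Of 8 listed, 5 were named and kept. FAU, whose product is cleaved to a small-subunit protein and a ubiquitin-like protein, read 5.88 on the uncompressed and 6.12 on the compressed array (difference 0.24). RPL22L1, a relative of RPL22, read 5.52 and 5.82 (0.30), and RPL36AL read 5.64 and 5.86 (0.22). RPL26L1 differed by 0.04 and RPL7L1 by -0.08, so 4 of these 5 kept genes were positive, with a median of 0.22, beside 0.13 over the kept members.

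Genes that build or serve the ribosome had lower or near-zero medians on the same arrays. Of 48 listed ribosome assembly factors, 32 were kept. Of these, 25 were negative and 7 positive (21.9%), beside 50.8% positive over kept genes, and the median was -0.12. It lay between -0.14 and -0.11 under all scalings and filters tried. RRP12, an export and maturation factor of pre-ribosomes, read 8.14 on the uncompressed and 7.56 on the compressed array (-0.57), FTSJ3, an rRNA methyltransferase, 7.84 and 7.40 (-0.43), and BOP1, a large-subunit assembly factor, 7.57 and 7.18 (-0.39). SBDS, which helps release EIF6 from new large subunits, was the highest, at 9.76 and 10.13 (0.37), followed by NOP10 at 0.18 and NMD3, the export adaptor of the large subunit, at 0.13. None of the assembly factors passed 1.5-fold, a size by which only 3.95% of kept genes were higher and 1.12% lower.

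The 71 kept genes of the mitochondrial ribosome, which is built from a separate set of proteins, had a median of -0.06, with 30 positive. MRPL39, MRPS23 and MRPL1 were lowest at -0.42, -0.40 and -0.37, and MRPL55, MRPS25 and MRPL27 highest at 0.41, 0.37 and 0.28. Of 37 listed translation factors, 12 were kept, with 5 positive and a median of -0.01 that was above 0 after loess correction and among protein-coding genes alone. EIF1, which guards start codon selection, read 8.97 and 9.37 (0.40), and EEF1A1, the elongation factor that delivers aminoacyl-tRNA, 6.002 and 6.31 (0.31). EIF6 differed by 0.17, whereas EIF5B, GSPT1 and EEF2, the translocase, differed by -0.14, -0.13 and -0.11. EEF1A1 and EEF2 are both known TOP messenger RNAs, and their values had opposite signs. Whether the lists differ from each other was not tested.

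**Figure D3:**
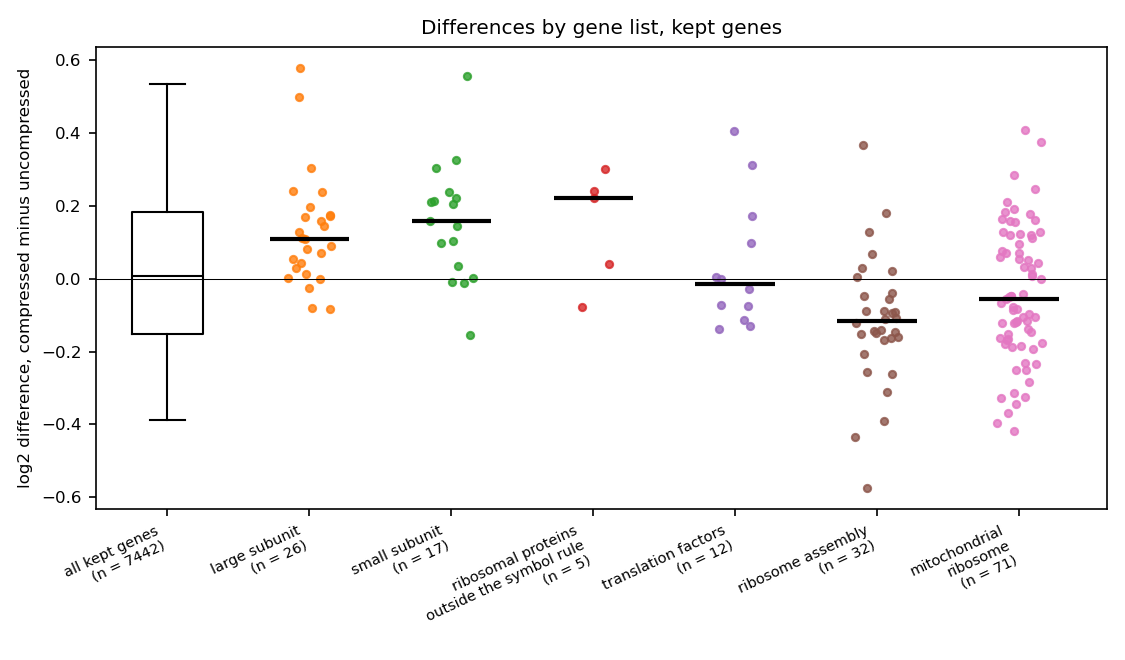
Log2 difference, compressed minus uncompressed, of kept genes in each list; each point is 1 gene and each bar the list's median, and the box gives all 7442 kept genes (median, quartiles, whiskers at the 5th and 95th percentiles). Medians are 0.11 and 0.16 for the large and small subunit, 0.22 for other ribosomal proteins and relatives, -0.01 for translation factors, -0.12 for ribosome assembly and -0.06 for the mitochondrial ribosome.

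Of the genes that act on ribosomal protein expression or on mTORC1, 9 of 17 listed were named and kept. MYC, which drives ribosomal genes, read 8.96 on the uncompressed and 8.77 on the compressed array (-0.19). The mTORC1 inhibitors DDIT4 (6.18 and 7.28) and SESN2 (4.81 and 5.57) were 2.15-fold and 1.69-fold higher. They were the 2 of the 9 that passed 1.5-fold, and 3.95% of kept genes were higher by that size. SESN2 read close to the floor on the uncompressed array, so the size of its difference is less certain. MTOR differed by 0.18, its substrates EIF4EBP1 and EIF4EBP2 by 0.36 and 0.06, SP1 by 0.31, MAX by 0.26 and YY1 by 0.08. The Pol I initiation factor RRN3, the only named gene of 11 listed for that machinery, differed by -0.04. LARP1 and the S6 kinase genes were not analysed here.

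Of 9 listed epithelial markers, 6 were named and 5 of these were above the floor, with KRT18, KRT19 and EPCAM between 10.43 and 11.71 on the arrays and KRT7 under the floor. Of 17 listed markers of fibroblasts, leukocytes and endothelium, 8 were named. Of these, LUM, LYZ and CD68 were above the floor, with differences of -0.36, -0.22 and 0.81, and DCN, CD14, VWF, PECAM1 and KDR were below it. Their part in the members' values was not tested. In RNA from a whole culture, fewer cells that express a gene and less RNA per cell cannot be told apart.

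**Figure D4:**
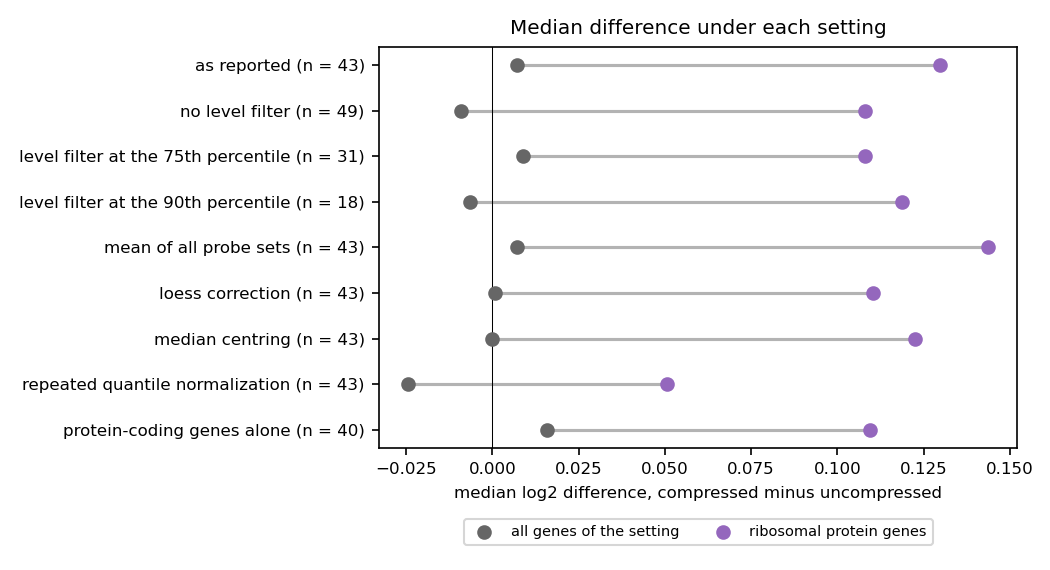
Median log2 difference, compressed minus uncompressed, of the ribosomal protein genes (purple) and of all genes (grey) under each setting, with the number of members in parentheses. Members' medians lie between 0.05 and 0.14, above that of all genes in each of the settings shown, and are lowest after repeated quantile normalization.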

How the data were processed

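The authors deposited log2 signals for 53617 probe sets on 2 arrays, for which the submitters' processing notes name RMA and the Transcriptome Analysis Console; their versions and the genome build were not given in the sources used here. RMA equalises the arrays, so a change shared by all genes is removed and changes near background are compressed. No detection calls were used here. Groups came from the treatment label. Platform annotation named 16098 probe sets, all matched to RefSeq genes (GRCh38.p14). Kept genes had a mean signal at or above the gene median. Members, lists and the naming rule (largest differences per subunit, highest signals, members under the floor, probe sets of opposite sign, and list extremes) were chosen with earlier results of these data known. The promoter, level-range and zinc-binding groupings and the protein-coding setting were added after values were seen. Counting was tested on simulated data. Alternatives were level filters, mean of probe sets, loess (span 0.3), centring, repeated quantile normalization, other sizes (0.32 on the log2 scale and 2-fold) and the mean of a list. Python 3.11.15, NumPy 2.4.6, pandas 2.3.3, statsmodels 0.14.6 and matplotlib 3.10.9 were used.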

Additional observations from a re-analysis of the deposited data

How the results depend on the processing

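The median over ribosomal protein genes was positive under all settings tried. With repeated quantile normalization, which ranks both arrays to a common distribution of the named genes, it was 0.051, that of the large subunit 0.049 and that of the small subunit 0.095. With the level filter at the 75th percentile, 24 of 31 remaining members were positive, beside 51.2% of all genes under that filter. At the 90th percentile, 15 of 18 were positive, beside 48.1%. After loess correction 2 members, RPL31 and RPS7, were at least 1.5-fold higher, beside 3.74% of kept genes. Both met the floor only through the compressed array. At the smaller size of 0.32 on the log2 scale, 4 members were higher, beside 13.5% of kept genes. In the other settings the number higher was 0. The number at least 1.5-fold lower was 1 with no level filter, beside 2.83% of all named genes. The sign was positive in the reported values, with averaged probe sets and under every scaling for 28 of the 43 kept members. It was negative throughout for 4 (RPL24, RPL8, RPS23 and RPS26). For the other 11, RPS28 among them, it turned or moved to or from 0 in at least 1 of these settings. The signs of RPL19 and RPL41 turned only when probe sets were averaged, and their differences were 0 after repeated quantile normalization. No paired analysis was possible because each condition has 1 array, and no replicate could be left out.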
